A study of Mus musculus with 12 samples.

Results

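Regions of the mouse genome that carried H3K4me3 in the E14.5 intestinal epithelium and in adult Lgr5+ stem cells, but were called in no enterocyte library, numbered 361. They were found by joining the peaks of 8 lists, 1 per library, wherever peaks overlapped or touched, and keeping autosomal regions with a peak in both E14.5 lists and both stem-cell (ISC) lists and in neither enterocyte list. The joined lists gave 23602 autosomal regions. Of these, 11615 were called in both E14.5 and both ISC lists, and the 361 were 3.11% of those. A further 1399 were called in 1 of the 2 enterocyte lists and 9855 in both. Absence from enterocytes chose the regions and is not a result. The state at E12.5 was not used to choose them.

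H3K4me3, trimethylation of lysine 4 of histone H3, is placed by SET1 and MLL complexes on nucleosomes around active and poised promoters, most of all at CpG islands. A short peak usually sits at a single promoter, whereas domains of several kilobases are known from genes that define a cell type. In the small intestine, Lgr5+ stem cells at the crypt base renew the epithelium, and enterocytes are the absorptive cells that their progeny become on the villus. In the embryo, the gut tube is lined by a dividing epithelium in which villi begin to form between the earlier and the later stage sampled here.

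All mice had a mixed C57BL/6 CD1 background, and every group had 2 H3K4me3 libraries, given in the design as biological duplicates. Embryonic epithelium (E12.5 and E14.5) was sorted as EpCAM+ cells without CD31 or CD45, markers of endothelium and leukocytes. Adult cells came from males of a Lgr5EGFP-Cre-ERT line at P60, with ISC sorted for high Lgr5-EGFP and enterocytes sorted by the same surface markers as the embryonic cells. That gate names no marker of enterocytes alone, so other EpCAM+ cells could pass it. The sorted cells are bulk samples, in which fewer cells with the mark and less mark per cell cannot be told apart. The sex of the embryos is not given. No gene annotation of the build, mm9, was used, so regions are named by mm9 position, without gene or promoter, and cell type markers could not be checked.

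Depth differed between libraries, and in ISC and enterocytes replicate 1 was the shallower. ISC replicates 1 and 2 had 13355462 and 25547814 tags, enterocyte replicates 12821255 and 22137910, E14.5 replicates 43259380 and 22718162, and E12.5 replicates 15053166 and 22696869. A region missing from a list was not called at that depth, which does not show that the mark was absent. The deeper enterocyte library did most of the choosing: of the 1399 regions called in 1 enterocyte list, 1387 were called in replicate 2. Without enterocyte replicate 2 the rule gave 1748 regions, and without ISC replicate 1 it gave 967. Left out in turn, each of the other 6 libraries gave between 361 and 397.

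The regions were short and most were weak peaks in stem cells. The bp under peaks in a region, its covered length, had a median of 904 bp in E14.5 replicate 1 and 969 bp in replicate 2. It was 399 bp in ISC replicate 1 and 622 bp in replicate 2. The longest value was 6298 bp at E14.5, and in ISC it was 5412 bp. In 164 regions the mean over the ISC libraries was under 500 bp, in 35 it was over 1000 bp and in 6 over 2000 bp, against 28 over 2000 bp at E14.5. Regions called in both enterocyte lists were longer in every library, with medians of 1622 and 1666 bp at E14.5 against 1235 and 1468 bp in ISC. Regions called in 1 enterocyte list lay between, with 1063 and 1107 bp at E14.5 against 570 and 857 bp in ISC.

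**Figure D1:**
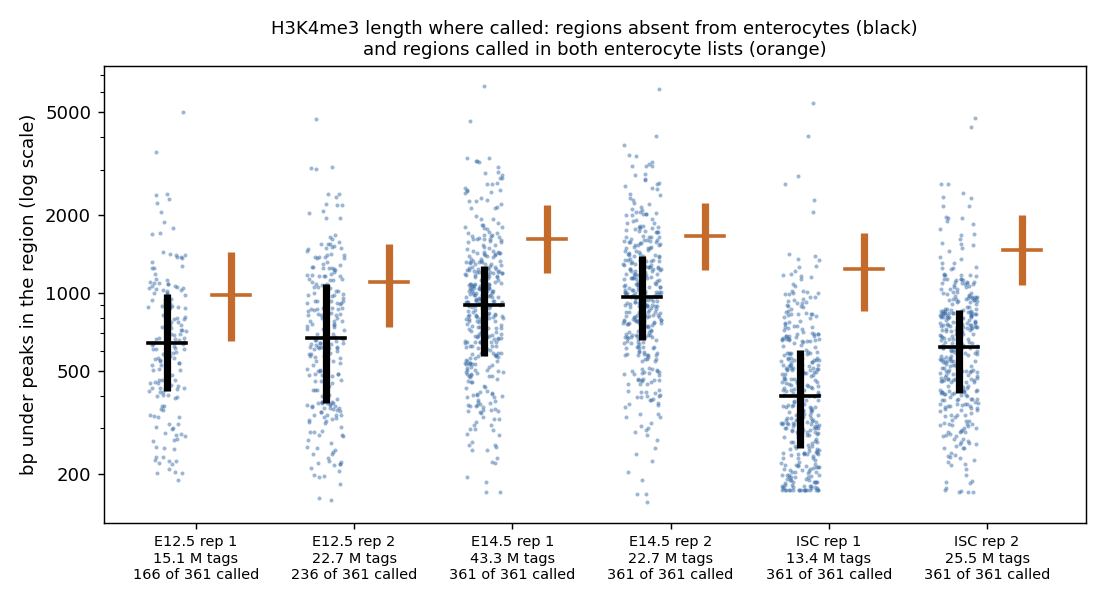
Covered length (bp under the authors' peaks, log axis) in the 6 embryonic and ISC libraries, each labelled with its tags and the number of the 361 regions it called. Points are single regions where called, black bars their quartiles and median, and orange bars the quartiles and median of the 9855 regions called in both enterocyte lists, which lie higher in every library.

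A few regions formed long domains in stem cells, and most of those were not called at E12.5. Among the 361, the longest in ISC was chr2:103138900-103144514. Its peaks added up to 670 and 814 bp in E14.5 replicates 1 and 2, against 5412 and 4401 bp in ISC replicates 1 and 2, and to 0 bp in both E12.5 libraries. Both ISC libraries lay far above both E14.5 libraries, with a log2 change from E14.5 to ISC of 2.66 ± 0.25 (SE; limma, adjusted p = 0.00106). The E14.5 peaks of the replicates shared no base here, which happened in no other of the 361, so the E14.5 call rests on 2 separate short peaks. The nearest joined region called in an enterocyte list lay 178896 bp away.

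Also longer in ISC was chr9:44911714-44914636, with 1075 and 1540 bp at E14.5 against 2827 and 2432 bp in ISC. The log2 change was 1.18 ± 0.26 (SE; limma, adjusted p = 0.0377). For chr10:114940206-114943339 the lengths were 283 and 1005 bp at E14.5 against 2654 and 2182 bp in ISC (log2 change 1.98 ± 0.44, SE, adjusted p = 0.037). In both, the shorter ISC library exceeded the longer E14.5 library, and neither E12.5 library had a peak. Both calls are marginal. The chromosome 9 call was lost without scaling (limma, adjusted p = 0.0624), with a pseudocount of 50 bp (0.108) and without ISC replicate 1 (0.113). The chromosome 10 call was lost in a fit of the E14.5 and ISC libraries alone (adjusted p = 0.0897) and with any single library left out (0.0594 to 0.241).

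Chromosome 3 held 2 further domains of this kind, both without a peak at E12.5. The first, chr3:30037087-30039438, measured 260 and 501 bp at E14.5 against 1130 and 2352 bp in ISC (log2 change 1.87 ± 0.33 (SE), limma, adjusted p = 0.0143). The second, chr3:107712878-107714422, measured 474 and 513 bp against 1173 and 1545 bp (log2 change 1.36 ± 0.19, adjusted p = 0.00516). In both the groups were apart. Also not called at E12.5 and long in ISC was chr7:138175439-138177905, with 734 and 1557 bp at E14.5 against 1354 and 2328 bp in ISC. Its lengths overlapped between the groups before scaling, and after scaling both ISC libraries were longer than both E14.5 libraries. Its difference did not pass (limma, adjusted p = 0.223).

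Other domains had a like unscaled length at both stages. At E14.5, chr1:67158286-67163209 measured 4623 and 4046 bp, against 4053 and 4753 bp in ISC, without a peak at E12.5. All 4 libraries shared 3762 bp of it. The lengths overlapped before scaling, and after scaling both ISC libraries were longer than both E14.5 libraries. The log2 change was 0.31 ± 0.15 (SE; limma, adjusted p = 0.296). Peaks in all 6 libraries outside enterocytes were found at chr8:48496999-48499809, with 2241 and 2361 bp at E12.5, then 2502 and 2645 bp at E14.5, then 2288 and 1974 bp in ISC. Its log2 change from E14.5 to ISC was 0.03 ± 0.15 (adjusted p = 0.982). Of the 5 regions longest in ISC it alone had E12.5 peaks, and another of the 361 lay 121690 bp from it.

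**Figure D2:**
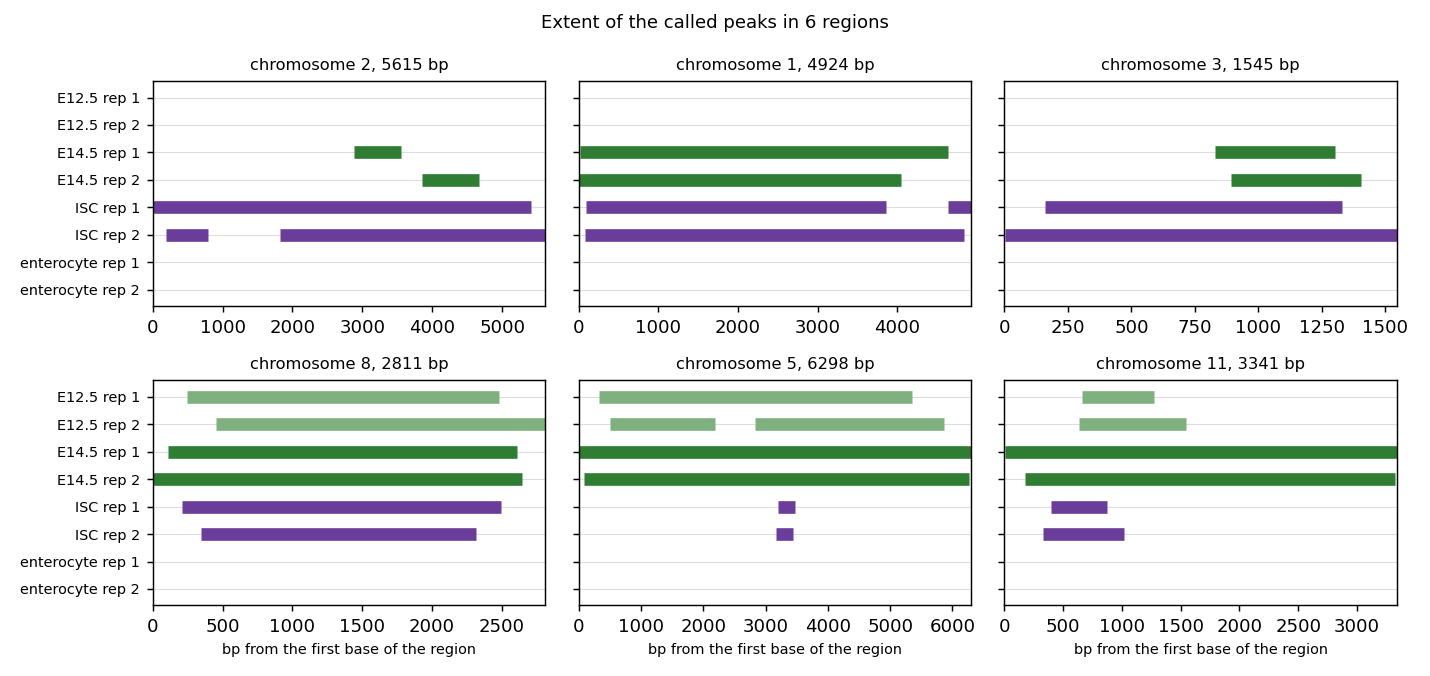
Extent of the called peaks in 6 regions, against distance in bp from the first base of the region, with 1 row per library (light green E12.5, dark green E14.5, purple ISC). The chromosome 2 and chromosome 3 regions were longer in ISC, those on chromosomes 5 and 11 shorter, and all 6 have empty enterocyte rows because the rule required it.

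Among the 5 regions longest at E14.5, 3 passed the test as shorter in ISC, on chromosomes 5, 11 and 17 (the last, chr17:17962900-17966631, is given with the regions longest at E12.5). The longest was chr5:58105386-58111683, with 5028 and 4713 bp at E12.5, then 6298 and 6176 bp at E14.5, then 281 and 272 bp in ISC. The groups were far apart, and the log2 change from E14.5 to ISC was -3.45 ± 0.13 (SE; limma, adjusted p = 0.000196). Of the ISC bases, 248 lay under the peaks of all 4 E14.5 and ISC libraries. In lists of equal length, where the replicate 2 peaks of both groups were removed, the log2 change was -1.70 and the call was lost (adjusted p = 0.679). At chr11:117193094-117196434 the lengths were 609 and 906 bp at E12.5, then 3341 and 3145 bp at E14.5, then 481 and 691 bp in ISC (log2 change -1.85 ± 0.18, adjusted p = 0.00122; in lists of equal length -2.77, adjusted p = 0.0577). The chromosome 11 domain was long at E14.5 alone, while the one on chromosome 5 was already long at E12.5. The other 2 of the 5 were the chromosome 1 domain of like unscaled length, above, and chr5:113564465-113568314. The latter had 0 and 1549 bp at E12.5, then 3231 and 3733 bp at E14.5, then 995 and 1687 bp in ISC. That region did not pass in the fit of 8 libraries (adjusted p = 0.698), and passed in the fit of the E14.5 and ISC libraries alone (log2 change -0.99 ± 0.18, adjusted p = 0.0409).

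The largest called decreases included 3 further regions, in each of which both ISC libraries were shorter than both E14.5 libraries. They were chr1:183948488-183950967, with 1447 and 2204 bp at E12.5, then 2480 and 2388 bp at E14.5, then 176 and 482 bp in ISC (log2 change -2.10 ± 0.28 (SE), limma, adjusted p = 0.00435). Next was chr17:56613791-56615898, with 732 and 934 bp, then 1663 and 2108 bp, then 191 and 315 bp (log2 change -1.93 ± 0.22, adjusted p = 0.00231). The last, chr9:8899964-8902209, had 249 and 524 bp, then 2221 and 2216 bp, then 345 and 420 bp (log2 change -1.77 ± 0.26, adjusted p = 0.00725). In lists of equal length the last region had no peak at E14.5 or in ISC, so that its call could not be tested there.

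Of the 5 regions longest at E12.5, 4 were called shorter in ISC than at E14.5, and the chromosome 8 domain was not. Besides the one on chromosome 5, these were chr17:17962900-17966631, with 3508 and 3018 bp at E12.5, then 3334 and 3437 bp at E14.5, then 585 and 1090 bp in ISC (log2 change -1.55 ± 0.22 (SE), limma, adjusted p = 0.00568). At chr3:88424643-88427892 the lengths were 2422 and 3035 bp, then 3246 and 3101 bp, then 920 and 1456 bp (log2 change -1.02 ± 0.14, adjusted p = 0.00509). At chr10:128326094-128329335 they were 1705 and 3066 bp, then 3223 and 3222 bp, then 339 and 1179 bp (log2 change -1.71 ± 0.41, adjusted p = 0.0467). In all of these both embryonic stages were long and ISC short. The last was lost in the fit of the E14.5 and ISC libraries alone (adjusted p = 0.0972) and without ISC replicate 1 (0.0777), either E12.5 library or either enterocyte library (0.0692 to 0.0789).

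Over all 361 regions, length was tested between ISC and E14.5. Both had to be called, and the rule did not use their lengths. It also required no enterocyte call, so the direction may still depend on the rule, which was not tested. Limma called 5 regions longer and 39 shorter in ISC (adjusted p under 0.05 on log2(scaled covered bp + 200)). Over all 17679 regions tested, 2.87% were longer and 11.9% shorter, so the members' shares of 1.39% and 10.8% were not above that background. That background also holds regions without a call in ISC or at E14.5. Of the 2099 regions called shorter, 132 were autosomal and called in both E14.5 and both ISC lists, as the members are. Among the 11615 regions called in both E14.5 and both ISC lists, 1.61% were longer and 1.14% shorter, so the members' share of shorter calls was above that of these regions. In the 1399 called in 1 enterocyte list, 0.143% were shorter, with a median log2 change of -0.22. Enterocyte values enter the spread of this fit, so the shares are not comparable between sets with different enterocyte calls. The median log2 change was -0.34 over the 361, -0.07 over all regions tested and -0.01 over the 11615. The change was positive in 75 of the 361 regions (20.8%). That count depended on the scaling: it was 36 without scaling and 170 with quantile normalization.

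Both enterocyte libraries had 0 bp in every one of these regions, and so did both E12.5 libraries in 120 of them, the 5 longer calls included. That adds residual degrees of freedom without spread and can make the adjusted p too small. A region called in 1 E12.5 list gets a larger spread in this fit instead. In a fit of the E14.5 and ISC libraries alone, added after the values were seen, limma called 5 longer and 46 shorter, with 4.54% and 15.8% over the 16658 regions tested there. Without E14.5 replicate 1 or without E14.5 replicate 2, the 8-library fit called 0 longer and 1 shorter, although 7 and 9 regions were longer and 47 and 43 shorter at an unadjusted p under 0.05. In those fits the lone library of a group is assumed to vary like the other groups. The fit called 24 shorter without ISC replicate 1 and 61 without ISC replicate 2. Of the 14 named calls, 13 were lost without either E14.5 library, and the chromosome 5 region from 58105386 was not (adjusted p = 0.046 and 0.0376). With quantile normalization 14 members were longer and 27 shorter, against 604 and 828 of all 17679 regions tested. The share shorter was thus higher among the members than over all regions there, unlike under the scaling used above. Enterocyte values enter the spread of that fit as well, so these shares are not comparable between sets with different enterocyte calls.

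The lengths of the libraries separated without a test in most regions. After scaling, both E14.5 libraries were longer than both ISC libraries in 205 regions (56.8%), against 26.9% over the 11615 regions. Both ISC libraries were longer in 36 (9.97%), against 26.5%. Replicate 2 of each group had a similar depth, 22718162 tags at E14.5 and 25547814 in ISC. There, unscaled, 303 of the 361 regions (83.9%) were shorter in ISC, with a median ratio of 0.675, and 76.0% of the 11615 were shorter, with a median ratio of 0.875. Their lists held 17658 and 15617 peaks.

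**Figure D3:**
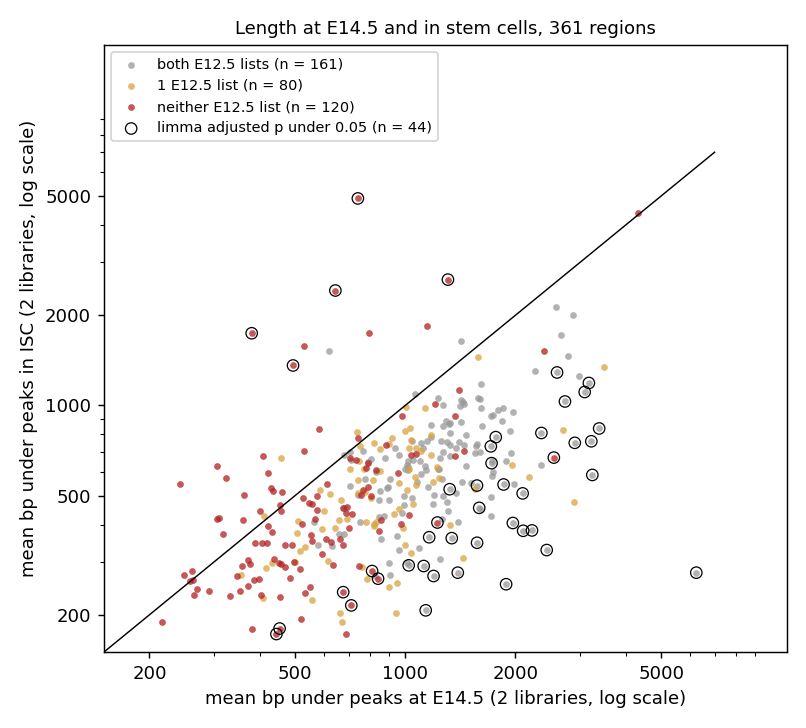
Mean covered length at E14.5 (x) and in ISC (y), both in bp on log axes, for the 361 regions, coloured by the number of E12.5 lists that called them, with the line of equal length. Circles mark the 44 regions past the limma threshold: 5 lie above the line and 39 below it, among them the longest E14.5 domain.

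Lengths were also set side by side by strength at E14.5. The 11615 regions were split into quartiles by rank at E14.5, that is, by the mean percentile of their strongest peak within each E14.5 list by −log10 q. The lowest quartile held 279 of the 361. There both E14.5 libraries were longer than both ISC libraries in 47.7% of them, in 37.5% of regions called in 1 enterocyte list and in 18.7% of regions called in both. In the second quartile the shares were 88.9% of 63, 59.2% and 23.7%, and in the third 81.2% of 16, 68.5% and 24.8%. These shares describe the regions, which were chosen on the ISC and enterocyte calls, and were not tested.

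Stem-cell peaks mostly lay inside the E14.5 peaks. The replicate 2 peak of ISC lay wholly within that of E14.5 in 242 regions (67.0%), and the reverse held in 28 (7.76%). In the median region, the whole ISC peak was under the E14.5 peak, and 64.7% of the E14.5 bases were under the ISC peak. Regions called in both enterocyte lists had 52.4% with the ISC peak inside and a median of 86.3% of the E14.5 bases under the ISC peak. Each of the 4 libraries had a single peak in 355 of the 361 regions, so that few were clusters of peaks. In 356, at least 1 base was under a peak in all 4 libraries.

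At E12.5, 161 of the 361 regions (44.6%) were called in both lists, 80 (22.2%) in 1 and 120 (33.2%) in neither. The shallower E12.5 replicate 1 called 166 and replicate 2 called 236. Over the 11615 regions, 82.8% were called in both E12.5 lists, with 57.5% of those in 1 enterocyte list and 87.8% of those in both. Counted the other way, 1.67% of the 9616 regions called in both E12.5 lists were in neither enterocyte list, and 11.8% of the 1014 called in neither E12.5 list.

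The share called at E12.5 rose with the strength of the peak. In the lowest quartile of the 11615 regions by ISC rank, which held 356 of the 361, the share called in both E12.5 lists was 44.1% of the members, 51.0% of regions in 1 enterocyte list and 42.2% of regions in both. In the lowest quartile by E14.5 rank it was 30.8%, 35.7% and 39.3%, and in the second quartile 88.9%, 93.7% and 94.3%. All 16 members of the third quartile and all 3 of the highest quartile were called in both E12.5 lists. By ISC length the order was different: in the lowest quartile, up to 846.5 bp, 40.7% of 307 members and 63.3% of regions in both enterocyte lists were called at E12.5. The 7 members of the longest quartile had 2 such regions, against 94.9% of regions in both enterocyte lists. A low share at E12.5 thus went with low rank in members and in regions kept by enterocytes. Among members it did not simply follow ISC length, since most of the few longest were not called in both E12.5 lists. Of these, the domains on chromosomes 1, 2, 9 and 10 were in the lowest quartile by ISC rank.

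**Figure D4:**
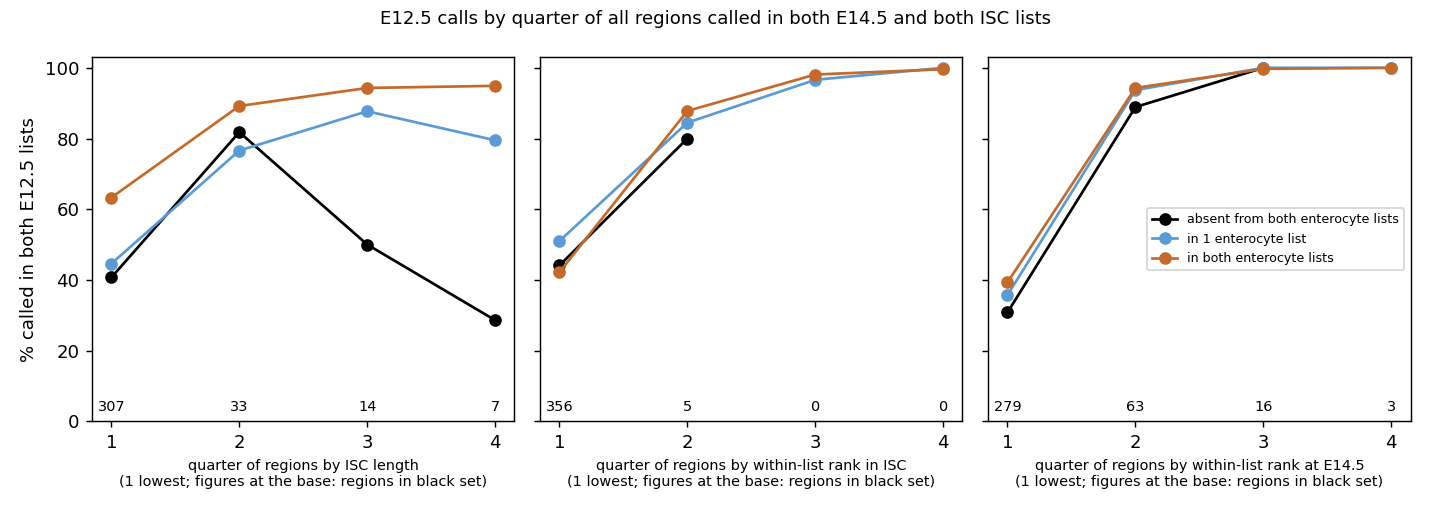
Percent of regions called in both E12.5 lists (y), by quartile (x, 1 lowest) of the 11615 regions by ISC length, ISC rank and E14.5 rank, for the 361 regions (black) and for regions in 1 (blue) or both (orange) enterocyte lists. Numbers at the base count the 361 regions per quartile, and sets of fewer than 5 are not drawn. The 3 lines lie close together by rank and apart by ISC length.

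Regions called in both E12.5 lists had longer medians at E14.5 and in ISC than those called in neither. The 161 regions in both E12.5 lists had a median of 1298 bp at E14.5, against 631 bp in ISC. The 120 in neither list had 539.5 bp, against 414.2 bp. The median log2 change from E14.5 to ISC was -0.56 in the first set, -0.30 in the 80 regions called in 1 E12.5 list and -0.12 in the 120. The change was positive in 10, 14 and 51 regions of these sets. Limma called 0 longer and 31 shorter in the first, 0 and 0 in the second, and 5 and 8 in the third, in the fit of 8 libraries. Since the E12.5 values enter the spread of that fit, its counts are not comparable between the sets. With E14.5 and ISC libraries alone, whose spread does not use E12.5, it called 1 and 36, 0 and 7, and 4 and 3. The difference between the sets was not tested.

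Within the 161, median length was similar at the embryonic stages only after scaling, and was lowest in ISC with or without it. Unscaled, E12.5 had a median of 750 bp, E14.5 of 1298 bp and ISC of 631 bp. The similarity of the embryonic stages thus depended on the scaling. After scaling, the median was 959.8 bp at E12.5, then 1025 bp at E14.5, then 603.1 bp in ISC. For the 9616 regions in both E12.5 lists these medians were 1330, 1344 and 1317 bp, which the scaling, set on regions called in all 8 libraries, brings close together. By scaled length, both E14.5 libraries were longer than both E12.5 libraries in 50 of the 161 (31.1%, against 26.3% of the 9616) and shorter in 48 (29.8%, against 32.6%). By the same measure, both ISC libraries were shorter than both E12.5 libraries in 101 (62.7%, against 33.6%) and longer in 13 (8.07%, against 22.2%).

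Rank within a list gave the same picture of weak stem-cell peaks. By −log10 q, with 100 as the strongest peak of a list, the median percentile was 11.2 in ISC replicate 1 and 22.5 in replicate 2. No region was in the strongest quartile of either ISC list, and 322 and 215 (89.2% and 59.6%) were in the weakest quartile. Of regions called in 1 enterocyte list, 62.6% and 25.3% were in the weakest quartile, with median percentiles of 20.5 and 32.5. Of regions called in both, 9.07% and 2.08% were there, with medians of 62.2 and 68.1. Low ISC rank was thus shared in part by regions called in 1 enterocyte list. At E14.5 the medians were 32.3 and 37.2, with 7 and 13 regions in the strongest quartile. Where called at E12.5, the medians were 23.7 and 29.5, with 13 and 15 regions in the strongest quartile. Lists differ in length, so a percentile describes a region within its list and shows no change between lists.

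The authors' scores for these peaks were likewise low in ISC. The median −log10 q was 2.43 and 4.76 in ISC replicates 1 and 2, where the medians of the whole lists were 9.46 and 21.4. It was 14.4 and 13.4 at E14.5, where the list medians were 31.4 and 25.5. The median fold enrichment over input was 3.46 and 3.49 in ISC, with list medians of 5.63 and 6.59. A −log10 q of at least 10 was reached by 230 regions in each E14.5 list, by 2 in ISC replicate 1 and by 35 in ISC replicate 2. Most members were thus low-scoring peaks within the ISC lists. Of regions called in both enterocyte lists, 94.8% and 94.6% reached that score in the E14.5 lists, and 61.8% and 93.2% in ISC replicates 1 and 2. Of regions called in 1 enterocyte list, 76.1% and 76.3% reached it at E14.5, and 4.07% and 42.5% in ISC. The lists differ in depth, so no change between groups is read from these counts.

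**Figure D5:**
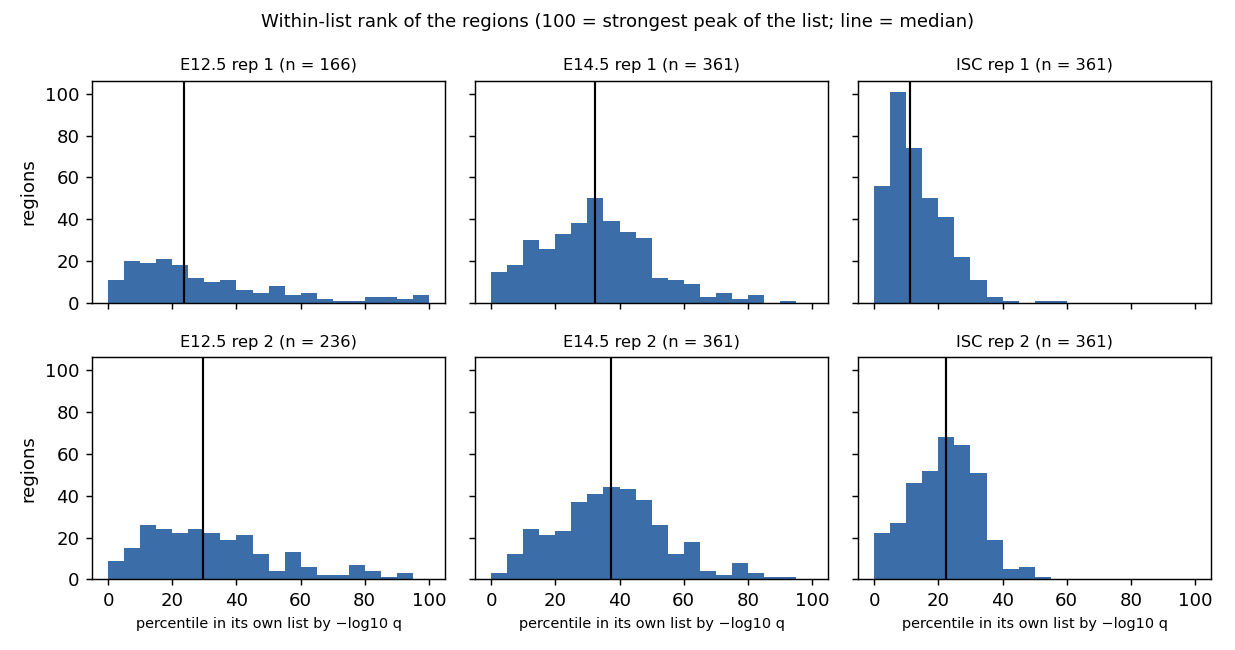
Number of regions (y) by percentile of their strongest peak within its own list by −log10 q (x, 100 is the strongest), for the regions called in each of 6 libraries, with the median as a line. ISC values pile up at the low end (medians 11.2 and 22.5), while E14.5 values are spread up to 91.5.

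The 3 highest ISC ranks belonged to regions of moderate length. The highest, chr14:79699892-79701630, was at percentiles 57.7 and 53.2 in ISC and 33.5 and 39.7 at E14.5. It measured 1070 and 1739 bp at E14.5, against 944 and 1309 bp in ISC, with no peak at E12.5. The next, chr19:26919739-26920848, was at 54.9 and 47.2 in ISC and 58.2 and 59.9 at E14.5. It shortened in the fit of E14.5 and ISC libraries alone, from 1000 and 922 bp to 300 and 357 bp (limma, adjusted p = 0.0254), and did not pass with all 8 (0.144). The third, chr17:46764844-46766848, was at 44.4 and 43.3 in ISC, 70.7 and 83.6 at E14.5, and 95.9 and 81.7 at E12.5, where it was among the strongest peaks. The chr1:183948488-183950967 region, shorter in ISC (above), was likewise at 97.5 and 76.0 at E12.5, with 10.8 and 28.6 in ISC.

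The regions longest in ISC were not among its strongest peaks. All but the chromosome 10 region still ranked above the third quartile of the 361, 18.6 and 29.3 in ISC replicates 1 and 2. The chromosome 2 region from 103138900, the longest in ISC, was at percentiles 26.4 and 33.1 there and at 0.41 and 8.07 at E14.5. The chromosome 10 region from 114940206 was at 9.5 and 18.6 in ISC, and the chromosome 1 region from 67158286 at 34.9 and 36.8. The chromosome 9 region from 44911714 was at 26.44 and 36.05 in ISC, and the chromosome 8 region from 48496999 at 28.34 and 34.86. The fold enrichment of the chromosome 10 domain was 3.48 and 3.42 in ISC, below the list medians of 5.63 and 6.59. That of the chromosome 1 domain was 5.69 and 6.27, near them.

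Regions at the limits of the rule were short. The 3 with the shortest ISC coverage lay on chromosome 14. Of these, chr14:14734109-14734600 had 397 and 492 bp at E14.5, against 174 and 171 bp in ISC. The next, chr14:47706144-47707119, had 402 and 976 bp at E14.5, against 174 and 171 bp in ISC. The third, chr14:71017989-71018526, had 538 and 224 bp, against 176 and 184 bp. Just outside the rule, 3 regions were called in both E14.5 and both ISC lists but also had an enterocyte peak of 158 bp in replicate 2. They were chr7:4787560-4788470, chr14:26587723-26588877 and chr8:35752028-35753145. In that order, their ISC lengths were 746 and 780 bp, then 395 and 616 bp, then 677 and 852 bp. A further 670 regions were absent from enterocytes and called in 3 of the 4 E14.5 and ISC libraries, and 606 of them missed ISC replicate 1 alone.

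Which regions met the rule depended on how a call was defined. In lists cut to the length of the shortest, 11111 peaks, the rule gave 367 regions, of which 49 were among the 361. With calls of at least 500 covered bp it gave 315, of which 105 were among them. With peaks of −log10 q of at least 10 it gave 41, of which 2 were among them. Under these 3 stricter calls, most of the regions that met the rule were thus other ones.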

How the data were processed

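H3K4me3 ChIP-seq peak lists of 8 libraries, 2 each for E12.5, E14.5, ISC and enterocytes, were used, and the 4 input samples were not analysed here. Per the file headers, the authors called peaks per library with MACS 2.0.10.20130712 in broad mode (q cutoff 0.01) against the input of the group, without pooling replicates. The lowest −log10 q of a list was 1.01 to 1.09, so the lists also hold peaks weaker than that cutoff. Among the 361 the lowest values were 1.23 and 1.35 at E14.5 and 1.03 and 1.07 in ISC. Build mm9, bcl2fastq 1.8.4, Bowtie 1.1.2 and SAMtools 1.2 are credited to the submitters' processing notes. Per the file headers, each deposited peak has a length in bp, a pileup signal (coverage), −log10 p-values and q-values, and a fold enrichment ratio over input. These scores were used only within a list. Only depth per library is known, not reads per region.

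Peaks were merged where they overlapped by at least 1 bp or touched, and bp under each library's peaks were summed per region. Limma 3.58.1 (R 4.3.3) was fitted on log2(covered bp / library factor + 200) over the 17679 regions called in at least 2 libraries, all 4 groups together, with a trended prior, two-sided and with Benjamini-Hochberg adjustment over all of them. Factors equalized medians over regions called in all 8 libraries (0.720 to 1.28). Printed bp are unscaled unless stated. On simulated lengths the 8-library fit recovered most of the changed regions but also made false calls, more than the fit of the E14.5 and ISC libraries alone. The simulated spread was smaller than that fitted in the named regions, and no replicate lost a peak. Recovery there does not show how many true changes are found in these data. P-values measure the spread between duplicates.

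Members, lists and alternatives were chosen with earlier results of these data known. Named regions are, outside chromosome 18, whose regions are not named here, the 5 longest in ISC, at E14.5, at E12.5 (called in both lists) and in ISC among those in neither E12.5 list, the 5 with the largest called change per direction without overlap, the 3 highest ISC ranks and the 3 shortest in ISC. Together these were 23 regions. Alternatives were other pseudocounts, scalings, region filters and call rules, other rank measures, a replicate block and each library left out. No genome of the build was used, so no sequence or gene is given. Cell type markers were not analysed here.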

Additional observations from a re-analysis of the deposited data

How the results depend on the processing

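The number of regions was 41 with a −log10 q of at least 10, 589 where at least 50% of a region had to be covered, and 361 to 1748 with each library left out. The share in both E12.5 lists was 77.9% in lists of equal length, 9.76% with a −log10 q of at least 10, 29.7% with at least 50% covered and 30.7% to 65.4% with a library left out, where a single E12.5 library counts as both. Members longer in ISC numbered 3 with a pseudocount of 50 bp, 3 without scaling, 14 with quantile normalization, 3 among regions called in at least 4 libraries, 14 in lists of equal length, 0 with a −log10 q of at least 10 (limma; 0 also at an unadjusted p under 0.05) and 0 to 8 with a library left out. Members shorter in ISC numbered 22 among regions called in at least 4 libraries, 79 in lists of equal length, 155 with a −log10 q of at least 10 and 1 to 61 with a library left out. In the filtered lists, 212 and 213 of the 361 could be tested, since the filters removed peaks of the others. Of all 13911 regions called in at least 4 libraries, 264 were longer and 484 shorter. In lists of equal length these were 546 and 719 of 12914. The share shorter was higher among the members in both of these settings. Enterocyte values enter the spread of these fits too, so the shares are not comparable between sets with different enterocyte calls. In lists of equal length the cut itself removed member peaks, so that share is no support for a direction. The median log2 change of the members was -0.16 with a pseudocount of 1000 bp, -0.58 without scaling, -0.079 with quantile normalization, -1.61 in lists of equal length, -2.37 with a −log10 q of at least 10 and -0.46 to -0.23 with a library left out. With a −log10 q of at least 10, 230 members kept their peak in each E14.5 list and 2 and 35 in the ISC lists, so that the filter set the direction there and those values are no support for it. Lists of equal length likewise removed member peaks. Under the other alternatives the median was negative. Without scaling, the median over all regions tested moved from -0.07 to -0.33. The median ISC rank was 16.6 to 18.5 by fold enrichment, length or pileup, against 16.8 by −log10 q, and 11.2 to 22.5 with an ISC library left out. The chromosome 14 region from 14734109 turned from -0.58 to 0.25 with quantile normalization.

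Replicate numbers are shared across groups, but the labels do not tie them to a litter or day. Differences between replicates 2 and 1 correlated across regions at 0.0208 to 0.311 between groups. With the replicate number as a block, 3 members were longer and 29 shorter in ISC. At these depths a region without a call may still carry the mark.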

Other observations

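The 361 regions were spread over all 19 autosomes. Chromosome 11 held 29, chromosomes 2 and 5 held 27 each and chromosome 13 held 12. These were 2.97%, 2.92%, 3.53% and 2.28% of the regions there called in both E14.5 and both ISC lists, against 3.11% over all autosomes.

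The nearest region called in an enterocyte list was a median of 36732 bp away, within 1000 bp in 4 regions, within 5000 bp in 33 and beyond 100000 bp in 88 (24.4%). For regions called in both enterocyte lists, measured to the nearest other region, the median was 21531 bp, with 10.4% beyond 100000 bp.

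In 19 cases, neighbouring members lay within 150 kb of each other. The closest were on chromosome 6, from 17980152 to 17980843 and from 17981661 to 17982177, and on chromosome 15, from 56524030 to 56525188 and from 56526156 to 56527624, with gaps of 818 and 968 bp and no E12.5 call. On chromosome 5, the regions from 34325593 to 34326946 and from 34338335 to 34340355, 11389 bp apart, were both called in both E12.5 lists.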
